A study of Mus musculus with 10 samples.

Results

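The mRNAs of cytoplasmic ribosomal proteins were followed across the cell classes, sexes and physiological states of the adult mouse pituitary. The members were the 88 genes, of 44288 gene symbols in the deposited tables, whose symbol is Rpl, Rplp or Rps with a number and an optional paralog letter. Symbols of pseudogenes (ending in -ps and a number) and of the Rps6k kinases were left out. The rule uses no expression value, but the members were chosen with earlier results of these data known. Of the 88 members, 53 name a protein of the large subunit (Rpl and Rplp) and 35 a protein of the small subunit (Rps). The annotation lists 83 of them as protein coding, Rps12l1, Rps3a2, Rps3a3 and Rpl6l as processed pseudogenes and Rps4l as a transcribed processed pseudogene. The members lie on 19 chromosomes, with 15 of them on chromosome 7 and 4 on the X chromosome.

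All 10 libraries were dissociated mouse pituitaries, in which each captured molecule carries a unique molecular identifier (UMI). The study bought CD1 mice and names no strain for its transgenic line. Drop-seq, a droplet method with barcoded beads, gave 8 libraries. They were WT females at 8 weeks (2 libraries, WT-8wk-0324-female and WT-8wk-0511-female), WT males at 8 weeks (2 libraries, WT-8wk-0324-male and WT-8wk-0511-male), mt/hGRF transgenic females at 8 weeks (1 library), virgin WT females at 13 weeks (1 library) and lactating WT females at 13 weeks (2 libraries). The mt/hGRF transgene expresses human growth hormone-releasing hormone from a metallothionein promoter, so the hormone is also made outside the hypothalamus. The commercial 10X Genomics platform gave the other 2 libraries, from a WT female and a WT male sample at 8 weeks. Mice were pooled in the 8-week Drop-seq samples and in the second lactating library (2 mice), so a library is not always a single animal.

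A ribosome is built from ribosomal RNA and many different ribosomal proteins, and a free protein that finds no place in a subunit is degraded. Vertebrate ribosomal protein mRNAs carry a short pyrimidine run at the very 5′ end, the terminal oligopyrimidine (TOP) tract, through which growth signals control their translation as a group. Pituitary hormone cells are secretory cells whose mRNA is dominated by a few hormone transcripts. For that reason 7 hormone genes (Gh, Prl, Pomc, Cga, Lhb, Fshb and Tshb) were taken out of all totals, and every level here is a count of UMIs per 10000 remaining UMIs. UMIs count molecules at the 3′ end and were not divided by length.

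After filtering, the Drop-seq libraries held 807 to 5253 barcodes with a median of 533 to 825 UMIs, and the 10X libraries held 1621 (female) and 1610 (male) barcodes with medians of 1236 and 970.5 UMIs. Cell classes were gates on marker genes: a barcode joined a class with at least 2 UMIs of that class's markers, or 20 globin and Alas2 UMIs for red blood cells. These gates took 28.7% to 40.1% of Drop-seq barcodes and 49.8% and 39.6% of 10X barcodes, and no hormone gene was used in them. Gh was nonetheless highest in the somatotrope gate in 2 of 2 10X and 7 of 8 Drop-seq libraries, and Prl in the lactotrope gate in 2 of 2 and 6 of 8. No pair of libraries shared more than 5 barcodes, over 45 pairs. Barcodes with more than a 0.01 share of ribosomal protein pseudogene UMIs were set aside. Barcodes too shallow to be cells held members at 68.7 to 254 per 10000 in Drop-seq and at 1828 and 1940 in 10X, so free RNA also carried these transcripts, and its part in the class levels was not tested.

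The platforms differed in how much ribosomal protein mRNA they counted and in which members carried it. Over all kept barcodes the members together held 450.0 (female) and 484.5 (male) UMIs per 10000 in the 10X libraries. In Drop-seq they held 140 in the mt/hGRF library, 162 in the virgin library, 119 and 90.6 in the lactating libraries, 131 and 129 in the female and male WT-8wk-0324 libraries, and 83.0 and 76.9 in the female and male WT-8wk-0511 libraries. All 8 Drop-seq sums lay under both 10X sums, and the WT-8wk-0511 pair was the lowest. In the kept barcodes all 88 members had at least 1 UMI in Drop-seq and 83 of the 84 members listed in the 10X tables had one there. A level of at least 1 UMI per 10000 was reached by 33 members as the Drop-seq median and by 77 members as the 10X mean. The 10 highest members held 42.3% of member UMIs in Drop-seq and 23.5% in 10X.

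The highest Drop-seq member was Rpl4, whose protein lines the peptide exit tunnel, at a median of 6.13 UMIs per 10000 (4.65 to 7.91 over 8 libraries), against 3.75 and 4.32 in the female and male 10X libraries. Next in Drop-seq came the small subunit genes Rps14 at 5.82 (4.003 to 8.71) and Rps9 at 5.64 (3.71 to 8.14), then Rpl41, which encodes the shortest ribosomal protein, at 5.28 (3.67 to 6.31) and Rps21 at 4.67 (2.41 to 9.29). The ranges of these 5 overlapped, so their order in Drop-seq was not separated by the spread between libraries. In 10X the highest were Rpl41 at 17.8 and 20.2, Rps29 at 12.8 and 13.5, Rpl10, a protein added late in large subunit maturation, at 11.6 and 11.9, Rps27 at 11.03 and 11.79 and Rpl13 at 10.2 and 11.3. Rpl41 alone was among the 5 highest on both platforms. Rps29, Rps27 and Rpl10 had Drop-seq medians of only 0.142, 0.287 and 0.392. Rpl24, a protein at the contact between subunits, had 8 UMIs in all Drop-seq libraries together (median 0.00502 per 10000) but 4.17 and 4.45 per 10000 in 10X.

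The lowest Drop-seq medians were those of Rps12l1 (0), Rpl39l (0.00273), Rpl24, Rpl3l (0.00550) and Rpl29 (0.0151). Rps12l1 had 1 UMI in the whole Drop-seq set, and Rpl3l, the striated muscle paralog of Rpl3, had 9 in Drop-seq and 0 in 10X. Across the 84 members in both sets of tables, levels on the platforms had a Spearman rho of 0.27, against 0.902 to 0.985 between Drop-seq libraries and 0.978 between the 10X libraries. These are descriptions across genes, which are not independent, and the points share library and chemistry. Only 3 members were among the 20 highest on both platforms. The Drop-seq tables listed 223 to 264 ribosomal protein pseudogene symbols, and those of 10X listed 16. Members with no listed pseudogene had a median Drop-seq level of 1.41 (29 members), those with 1 to 3 had 0.547 (34 members) and those with 4 or more had 0.392 (25 members). The corresponding 10X medians were 5.31, 5.65 and 5.27. Drop-seq counted uniquely mapped reads, and the part of shared sequence in these levels was not tested.

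**Figure D1:**
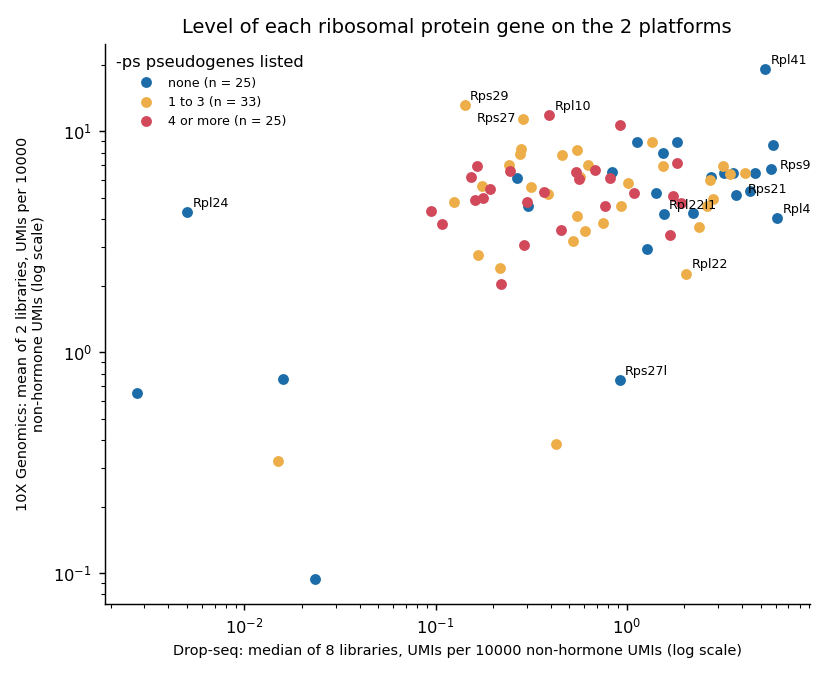
Level of each member in the Drop-seq libraries (median of 8) against its mean in the 2 10X libraries, in UMIs per 10000 on log axes, for the 83 members above 0 on both. Points are coloured by the number of pseudogenes listed for the member, and the Drop-seq median is 0.392 for members with 4 or more and 1.41 for members with none.

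The TOP tract begins at the transcription start, and 30 bases around annotated RefSeq starts (15 before, 15 after) are printed for 11 of the members named in the results. These starts can differ from those of the annotation used for the members. That annotation starts Rpl4 at 64173375, the first base of its motif. Its starts of Rplp2, Rps26, Rps9, Rps16, Rpl22 and Rpl41 (at 128549305) lie outside the printed windows. The sequences are RefSeq promoters of GRCm38.p6, written 5′ to 3′ on the gene's strand, with capitals on every match of the pyrimidine motif searched for (CTTTC or CTTTTC). Where 2 starts are annotated, both are printed.
Rplp2, chr7:141447636-141447665, plus strand: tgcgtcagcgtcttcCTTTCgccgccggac
Rps26, chr10:128626492-128626521, minus strand: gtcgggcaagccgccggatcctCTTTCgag
Rpl4, chr9:64173372-64173401, plus strand: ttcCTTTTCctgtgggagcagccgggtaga
Rps27, chr3:90213634-90213663, minus strand: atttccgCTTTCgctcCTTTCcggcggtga
Rpl13, chr8:123102335-123102364, plus strand: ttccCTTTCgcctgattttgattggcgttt
Rps9, chr7:3704026-3704055, plus strand: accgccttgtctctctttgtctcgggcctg
Rps16, chr7:28350674-28350703, plus strand: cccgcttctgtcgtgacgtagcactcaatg
Rpl41, chr10:128549154-128549183, minus strand: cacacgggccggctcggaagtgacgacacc
Rpl22, chr4:152325711-152325740, plus strand: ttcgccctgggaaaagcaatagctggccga
Rpl22, chr4:152324421-152324450, plus strand: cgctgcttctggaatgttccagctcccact
Rps21, chr2:180257364-180257393, plus strand: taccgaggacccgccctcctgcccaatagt
Rps21, chr2:180257434-180257463, plus strand: ggacaagtgagcaggtaggcctcggtgcgg
Rpl10, chrX:74270801-74270830, plus strand: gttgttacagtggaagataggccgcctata
In the first 5 genes (Rplp2, Rps26, Rpl4, Rps27 and Rpl13) the motif lies in the window, and in the windows of the other 6 these letters are absent. The Rps9 window holds a longer pyrimidine run without these letters. The split depends on the start and the motif chosen and does not show which members have a TOP tract. A promoter was matched by symbol for 64 members. Within 25 bases either side of the start, 21 of the 64 members (32.8%) held CTTTC or CTTTTC on the gene's strand, against 9.59% of 27025 genes, and the shares on the opposite strand were 12.5% and 8.66%. In the promoters of 250 bases before and 50 after the start, counting both strands, CCGGAAG (an ETS factor motif) was in 39.1% of members against 9.93% of genes, AAGATGGCG (the YY1 motif) in 6.25% against 1.64%, and TATAAA in 12.5% against 15.7%. A match of letters is a description and not a mapped site.

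Macrophage-gated barcodes held the most ribosomal protein mRNA of any class gated in at least 3 libraries. In Drop-seq the summed level was 289.6 ± 49.6 UMIs per 10000 in macrophages (MacPh, SD, n = 7 libraries), 193.5 ± 46.0 in Sox2+ stem and supporting cells (n = 7), 128.4 ± 59.6 in somatotropes (Som, n = 8) and 119.5 ± 49.0 in lactotropes (Lac, n = 8). It was 108.4 ± 17.4 in stroma (n = 3), 95.9 ± 17.3 in proliferating Mki67+ cells (n = 4), 86.3 ± 23.3 in melanotropes (Mel, n = 8), 80.8 ± 35.7 in gonadotropes (Gona, n = 7) and 39.8 ± 15.2 in red blood cells (RBC, n = 6). Without the limit on the pseudogene share, stroma was at 201.5 (n = 4) and Mki67+ at 209.7 (n = 7), near the 205 of Sox2+ under the same setting (n = 7) and below the 325 of MacPh (n = 8), so the place of stroma and Mki67+ in this order depended on that limit. Corticotropes reached 20 barcodes in the virgin library alone, with a level of 347 over 24 barcodes. Pituicytes reached them in the second lactating library alone, with 123 over 22 barcodes.

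Within libraries, MacPh lay above Sox2+ in 6 of 6 (difference 113.7 ± 47.4, SD) and Sox2+ above Som in 6 of 7 (59.8 ± 52.3). The exception was the virgin library, with 226 in Sox2+ and 240 in Som. Som and Lac, next to each other in the order, were not separated: Som was higher in 3 of 8 libraries and the difference of 8.89 ± 41.0 was smaller than its spread. Mel exceeded Gona in 5 of 7 libraries and Mki67+ exceeded Mel in 3 of 4, so these neighbours were not separated either. Gona exceeded RBC in 5 of 5 libraries (45.6 ± 35.3). Globin stayed in these totals. In the test given below, with its TMM scaling, the median log2 fold change of members against Som was -0.23 in RBC and -0.58 in Gona. The place of RBC thus depended on the scaling. In 10X the values in the female and male library were 1458 and 1472 in MacPh, 1031 and 1061 in Sox2+, 492 and 472 in Som, 389 and 529 in Gona, 261 and 510 in stroma, 329 and 318 in Mel and 216 and 327 in Lac. MacPh and Sox2+ had the highest means among the classes gated in at least 3 Drop-seq libraries and were the highest in both 10X libraries. Without the pseudogene limit the 10X mean of Sox2+ was 1555 and that of MacPh 1465, so their order in 10X turned. The barcodes added by that setting had summed levels of 4744 (female) and 5110 (male), above both classes, and markers of proliferating cells gated 47 and 89 of them.

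**Figure D2:**
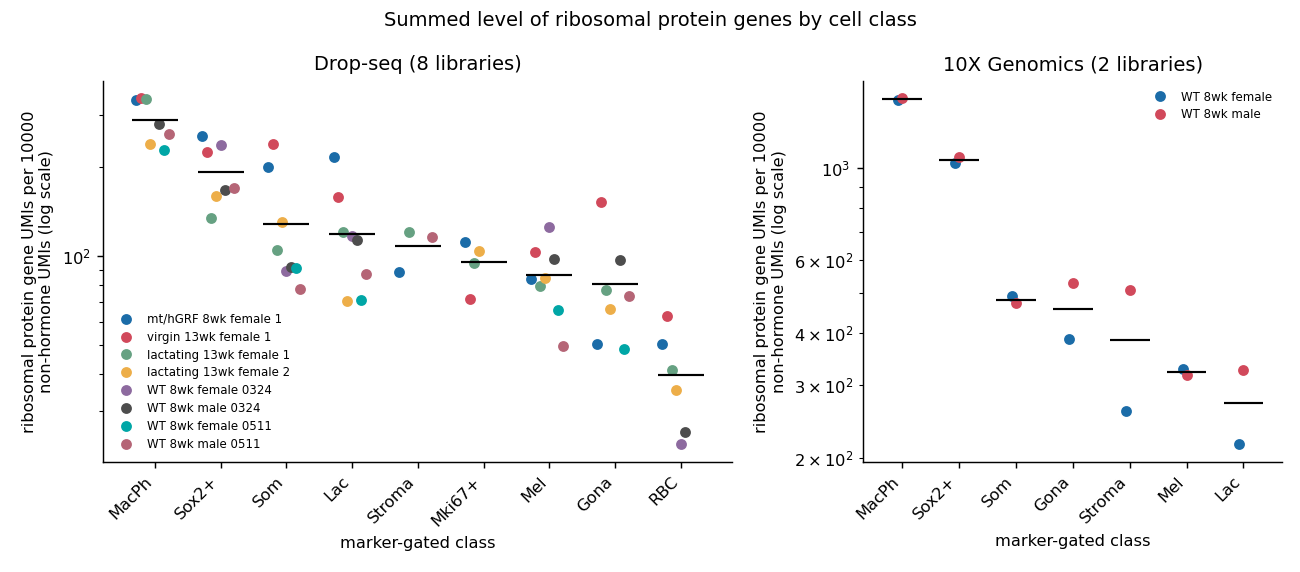
Summed level of the members, in UMIs per 10000 on a log axis, by gated class in Drop-seq (left) and 10X (right), with a point per library and a bar at the mean. Of the classes drawn, which leave out corticotropes and pituicytes, MacPh has the highest mean on both platforms, at 229 to 343 per library in Drop-seq and at 1458 and 1472 in 10X with the pseudogene limit in place.

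Ribosomal protein genes of both subunits were higher in macrophages than in somatotropes. The MacPh summed levels were 337 in the mt/hGRF library, 343 in the virgin library, 340 and 239 in the lactating libraries, 281 in WT-8wk-0324-male, and 229 and 259 in the female and male WT-8wk-0511 libraries. The Som levels in the same libraries were 201, 240, 105, 131, 92.0, 91.7 and 77.7. WT-8wk-0324-female kept too few MacPh barcodes to be compared, and the pseudogene limit had set aside 45 MacPh-gated barcodes there. MacPh was the higher in every library compared, by 1.43 to 3.33 times (median 2.498), and by 2.97 and 3.12 times in the female and male 10X libraries. The median over single barcodes differed more, by 3.36 to 5.86 times in Drop-seq and by 8.86 and 8.27 times in 10X. Malat1, a nuclear noncoding RNA, moved the other way, with 172 to 636 UMIs per 10000 in MacPh and 612 to 1341 in Som of the Drop-seq libraries. Median depth was 672 to 1170 non-hormone UMIs in MacPh and 509 to 1030.5 in Som. The part of these differences in the level was not tested.

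In the test across 7441 genes (edgeR quasi-likelihood, library as a block), 59 members passed the filter on low counts and 29 did not. Of the 59, 50 were higher in MacPh and 1 was lower at a Benjamini-Hochberg adjusted p under 0.05, where 24.2% of all genes tested were called higher and 27.9% lower. The median log2 fold change was 1.62 over these members and -0.21 over all genes. Of the large subunit genes 29 of 36 were higher, and of the small subunit genes 21 of 23, with medians of 1.503 and 1.785. Without the TMM scaling the median of all genes moved by 0.45 to -0.66, and 44 of the 50 members were called higher (all genes: 17.9%), with a median of 1.13 over the 59.

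Rplp1 encodes an acidic stalk protein, which recruits elongation factors to the large subunit. It was at 12.9, 15.1 and 22.9 UMIs per 10000 (lowest, median and highest Drop-seq library) in MacPh and at 1.30, 2.97 and 9.56 in Som, so the groups did not overlap (log2 fold change 2.72 ± 0.24, SE, edgeR Benjamini-Hochberg adjusted p = 1.99e-21). In 10X it was at 27.1 and 28.1 in MacPh and at 3.87 and 3.55 in Som. The other stalk genes rose too, Rplp2 by 2.24 ± 0.24 and Rplp0, which anchors the stalk, by 1.69 ± 0.25 on the log2 scale.

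Rps16, a small subunit gene whose protein touches the transfer RNA in the peptidyl site, was at 0.275, 0.684 and 1.87 in MacPh against 0, 0.0865 and 0.676 in Som (log2 2.54 ± 0.45, edgeR Benjamini-Hochberg adjusted p = 4.14e-07). Its groups overlapped, and it rests on 68 UMIs in MacPh and 13 in Som. In 10X, where it is well counted, Rps16 was at 19.4 and 17.8 in MacPh and at 4.38 and 2.56 in Som. Rpl22, an RNA-binding large subunit gene, was at 1.65, 7.41 and 9.33 against 0.779, 1.62 and 3.18 (log2 2.49 ± 0.26, adjusted p = 1.71e-16 by the same test), with groups that overlapped but a rise in all 7 libraries.

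Abundant small subunit genes rose as well. Rps9 had a mean of 19.0 in MacPh and 6.07 in Som (log2 2.16 ± 0.22), Rps14 of 17.5 and 7.18 (1.79 ± 0.23) and Rps3, at the mRNA entry channel, of 14.9 and 6.10 (1.81 ± 0.23). Rpl4, the highest Drop-seq member, rose by 0.85 ± 0.23, with a higher level in 5 of 7 libraries, and Rpl41 by 0.76 ± 0.23, higher in 4 of 7. The single member lower in MacPh was Rpl12, at the base of the stalk, named here after its values were seen. It was at 0, 0.201 and 0.275 in MacPh and at 0.104, 0.692 and 1.10 in Som, with overlapping groups and a lower level in 6 of 7 libraries (log2 -1.33 ± 0.54, edgeR Benjamini-Hochberg adjusted p = 0.0319). With single libraries left out, 0 to 2 members were lower. In 10X Rpl12 was not lower: of members with at least 20 UMIs over both classes only Rpl22l1 was, in the female library. The 8 tested members without a call were Rpl7a, Rpl9, Rpl17, Rpl22l1, Rpl31, Rpl36, Rps13 and Rps3a3.

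**Figure D3:**
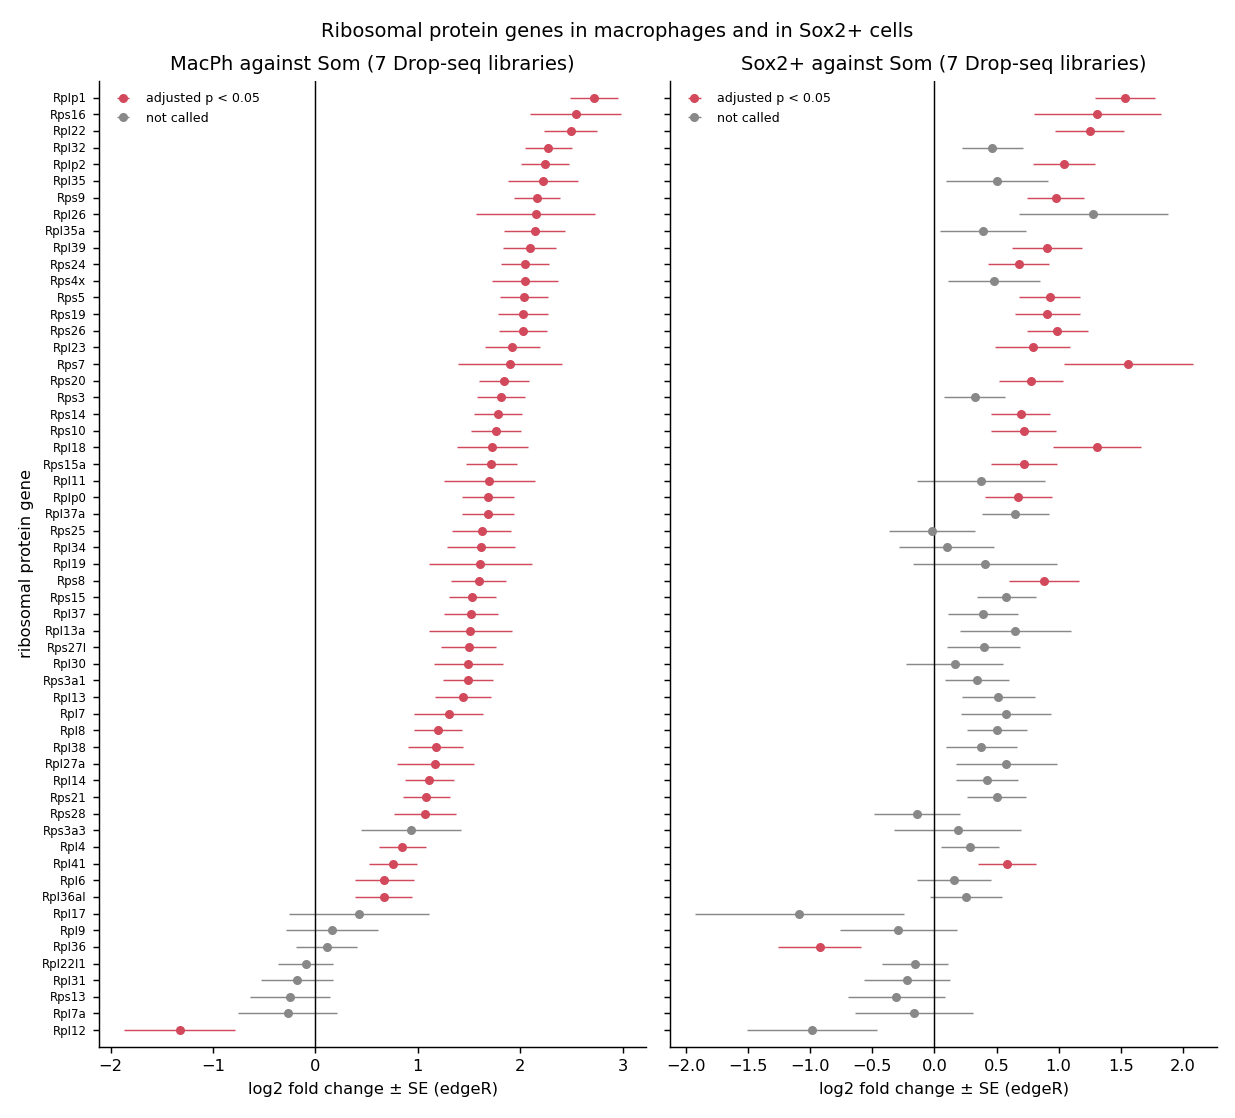
Log2 fold change against Som (± SE) of 57 of the 59 tested members in MacPh and in Sox2+ barcodes of the Drop-seq libraries, with members past an adjusted p of 0.05 in red. Of those drawn, 48 lie to the right of 0 in red in MacPh and 20 in Sox2+. The comparisons share Som of 6 libraries.

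A smaller count of ribosomal protein genes passed the test in Sox2+ cells, which were compared with Som in 7 libraries, 6 of them also used for MacPh. The Sox2+ and MacPh effects were not tested against each other. The summed levels in Sox2+ were 256 in the mt/hGRF library, 226 in the virgin library, 135 and 161 in the lactating libraries, 238 and 168 in the female and male WT-8wk-0324 libraries and 170 in WT-8wk-0511-male. They were 0.944 to 2.66 times the Som level (median 1.29), below it in the virgin library alone, and 2.10 and 2.25 times in the 10X libraries. Of the 59 members, 21 were higher and 1 lower, where 15.6% of all genes were called higher and 12.6% lower, with a median log2 fold change of 0.50 over members and 0.00 over all genes. The calls were 9 of 36 large subunit genes and 12 of 23 small subunit genes. The count of members higher was 10 without WT-8wk-0511-male (all genes: 12.6%) and 5 of 58 with 1 more marker UMI in the gates, below the 11.7% of all genes. The mitochondrial share of UMIs was higher in Sox2+ than in Som in 7 of 7 libraries, at 3.07% to 5.61% against 2.40% to 4.57%. Malat1 was lower in Sox2+ in 6 of 7, the virgin library being the exception (675 against 632 UMIs per 10000), and in 10X it was at 915 and 1035 in Sox2+ against 1864 and 1577 in Som. Their part in the level was not tested.

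The stalk gene Rplp1 had the largest of the rises shared by every library, from 1.30, 3.33 and 9.56 in Som to 7.16, 10.3 and 16.6 in Sox2+ (log2 1.53 ± 0.24, edgeR Benjamini-Hochberg adjusted p = 5.92e-08). The groups overlapped, and the 10X levels in Sox2+ were 16.3 and 19.3. Its partner Rplp2 rose from 0.417, 2.30 and 6.13 to 4.22, 6.69 and 9.44 (log2 1.04 ± 0.25). Rpl22 rose from 0.417, 1.49 and 3.18 to 2.33, 2.99 and 6.74 (log2 1.25 ± 0.28), and both pairs of groups overlapped.

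Rps26, whose protein lies at the mRNA exit channel, was at 1.30, 2.57 and 6.67 in Som and at 1.87, 5.66 and 8.71 in Sox2+ (log2 0.99 ± 0.25). The groups overlapped, and it rose in 7 of 7 libraries. In 10X Rps26 was at 8.63 and 12.04 in Sox2+ and at 3.36 and 2.89 in Som. The lower member was Rpl36, at 0.333, 0.627 and 1.35 in Sox2+ and at 0.417, 1.44 and 2.16 in Som, with overlapping groups but a lower level in 7 of 7 libraries (log2 -0.93 ± 0.33, edgeR Benjamini-Hochberg adjusted p = 0.0253). In 10X Rpl36 was not lower: 79 of 79 members with at least 20 UMIs over both classes were higher in Sox2+ in each library.

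The 10X libraries, with 1 library per sex, were described without a test, and the share of all genes that were higher was not counted for them. Malat1 in these libraries was at 342 and 461 UMIs per 10000 in MacPh and at 1864 and 1577 in Som, and its part in the folds was not tested. Among members with at least 20 UMIs over both classes, MacPh exceeded Som in 79 of 80 members in the female library and in 79 of 79 in the male, with median folds of 2.85 and 3.02. The exception was Rpl22l1 in the female library, at 0.978 times the Som level. The highest fold was that of Rps29, a zinc-binding protein of the small subunit head, at 11.5 and 9.35 times. Sox2+ exceeded Som in 79 of 79 members in both libraries, with medians of 2.12 and 2.24 and the highest fold in Rps27l at 5.81 and 8.65 times, from 17 and 19 UMIs in Sox2+ and 4 UMIs in Som of each library. Against Lac, MacPh was higher in 81 of 82 members in the female library, Rpl39l being the exception, and in 79 of 79 in the male library. Low members of Drop-seq, which could not be tested there, were among those counted in 10X: Rps27 was at 36.3 and 29.7 in MacPh and at 14.5 and 12.3 in Som, and Rpl10 at 30.3 and 30.5 against 16.5 and 14.4. Their low Drop-seq medians ran the other way, with Rps27 at 0.275 in MacPh (7 libraries) and 0.425 in Som (8 libraries), and Rpl10 at 0.195 and 0.486.

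Of the paralog pairs, Rpl22 and Rpl22l1 were both well counted on both platforms. Rpl22l1, which can take the place of Rpl22 in the ribosome, was at 0.806, 1.44 and 2.28 in MacPh and at 1.14, 2.49 and 5.95 in Som, with a log2 fold change of -0.10 ± 0.27 (edgeR Benjamini-Hochberg adjusted p = 0.787), where Rpl22 rose by 2.49. In 10X Rpl22l1 was at 5.28 and 5.33 in MacPh and at 5.40 and 3.88 in Som, but at 9.05 and 8.88 in Sox2+. The difference between the fold changes of the partners was not itself tested. Rps27l, a paralog known as a p53 target, was the better counted of its pair in Drop-seq (0.917 against 0.287 for Rps27) and the lower by far in 10X (0.658 and 0.839 against 11.03 and 11.79). It rose by 1.495 ± 0.269 in MacPh, and its Sox2+ value was 0.40 ± 0.29 (edgeR Benjamini-Hochberg adjusted p = 0.326).

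Rpl36al, an autosomal relative of the X-linked Rpl36a, was likewise higher in Drop-seq (1.28 against 0.0944) and lower in 10X (2.78 and 3.09 against 4.08 and 4.66). It rose by 0.67 ± 0.28 in MacPh, with a higher level in 4 of 7 libraries. The X-linked Rpl39, of the exit tunnel, rose by 2.09 ± 0.26 in MacPh and 0.90 ± 0.28 in Sox2+, while its testis-enriched paralog Rpl39l had 24 UMIs in all of Drop-seq. Rpl10l, the testis paralog of Rpl10, had 53. The X-linked Rps4x rose by 2.04 ± 0.32 in MacPh, with 10X levels of 28.0 and 28.3 against 8.15 and 9.42 in Som, and its autosomal relative Rps4l had a Drop-seq median of 0.215. Rpl7 rose by 1.30 ± 0.34 and Rpl6 by 0.67 ± 0.29 in MacPh, and their relatives Rpl7l1 and Rpl6l had medians of 0.428 and 0.0160 and were not tested. Rpl3 and Rps12 were at 0.174 and 0.299 in Drop-seq and were not tested either.

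In the remaining classes between 0 and 3 of the 59 members were called, with the limit on the pseudogene share in place. Counts with a library left out describe stability, and those printed without a share of all genes are not a result about the members. The same holds for counts at an unadjusted p under 0.05, for which no share of all genes is given. In Lac none was called in either direction (all genes: 1.96% higher, 1.59% lower), with 3 members at an unadjusted p under 0.05 in edgeR, none called in DESeq2 and a median log2 fold change of 0.03. In Mel none was called (all genes: 6.18% higher, 3.51% lower), with 10 members at an unadjusted p under 0.05 and a median of -0.23. Without TMM, which moved the median of all genes in Mel from 0.08 to -0.20, 16 members were called lower there (all genes: 7.67%). DESeq2 called 5 lower (all genes: 4.31%). Under TMM 6 of 61 were lower without WT-8wk-0324-female (all genes: 3.52%) and 6 of 58 with 1 more marker UMI (all genes: 2.48%), with medians of -0.32 and -0.50. The count was 2 without the second lactating library and 1 without the first lactating library or WT-8wk-0324-male.

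In Gona 0 members were higher and 2 lower (all genes: 2.82% higher, 2.22% lower), with 22 members at an unadjusted p under 0.05 in edgeR. The median was -0.58, against -0.09 over all genes. Rps3 was at 1.04, 1.73 and 5.77 in Gona and at 2.84, 4.69 and 10.9 in Som (log2 -1.13 ± 0.28, edgeR Benjamini-Hochberg adjusted p = 0.00400), lower in 7 of 7 libraries with groups that overlapped. In 10X the same gene was at 4.79 and 5.57 in Gona and at 4.58 and 5.70 in Som. Rps14 fell by 0.91 ± 0.27 on the log2 scale (adjusted p = 0.0247 by the same test), lower in 6 of 7 libraries. Both calls were lost when barcodes over 3000 UMIs were left out. The count of lower members was 7 of 61 without WT-8wk-0324-female (all genes: 2.32%) and 7 of 56 without WT-8wk-0511-male (all genes: 1.98%). It was 4 without the virgin library and 1 without the mt/hGRF library, the second lactating library or WT-8wk-0511-female.

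In Mki67+ cells Rps20, a protein of the small subunit head, was the only call (all genes: 4.23% higher, 1.3% lower), at a log2 fold change of -1.30 ± 0.40 (edgeR Benjamini-Hochberg adjusted p = 0.0250) and lower in 3 of 4 libraries. The count of lower members was 5 of 61 without WT-8wk-0324-female (all genes: 1.54%), 4 without the second lactating library, 3 without WT-8wk-0324-male, 2 without WT-8wk-0511-male and 0 without the mt/hGRF or the virgin library. In stroma Rps3 was the only call (all genes: 4.43% higher, 5.23% lower). It was at 3.81, 0.594 and 2.54 in stroma and at 10.9, 2.84 and 3.37 in Som of the same 3 libraries (log2 -1.71 ± 0.50, edgeR Benjamini-Hochberg adjusted p = 0.0144). The groups overlapped although each library was lower in stroma. Without WT-8wk-0324-female 2 members were lower in stroma. Neither the Rps20 nor this Rps3 call was made by DESeq2. Without the limit on the pseudogene share the median over members changed sign in both classes. In Mki67+ 26 of 64 members were higher and 3 lower (all genes: 19.8% higher, 10.0% lower), with a median log2 fold change of 0.56 in place of -0.50, against 0.02 in place of -0.18 over all genes. In stroma 8 of 64 were higher, a share near the 11.4% of all genes, and 0 were lower (all genes: 8.78%). Its median was 0.41 in place of -0.64, against -0.34 in place of -0.75 over all genes, and the Rps3 value was 0.53.

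In RBC, whose mRNA is mostly globin, the counts of calls depended on the scaling. With TMM 2 members were called higher and 1 lower (all genes: 3.53% higher, 8.51% lower), and the median log2 fold change was -0.23 over members. The higher members were Rpl41 (log2 1.11 ± 0.26) and Rplp2 (0.85 ± 0.30), whose plain level per 10000 was higher in RBC in only 2 and 1 of 6 libraries. Without TMM, which moved the median of all genes from -0.69 to -2.30, 0 members were higher and 56 of 59 lower, where 75.2% of all genes were called lower, and the median was -1.93 over members, above that of all genes as it was with TMM. Rpl22l1 was lower under both, at 0, 0.272 and 0.386 in RBC against 0.417, 2.57 and 5.95 in Som, with no overlap between groups (log2 -1.63 ± 0.45, edgeR Benjamini-Hochberg adjusted p = 0.00794), and DESeq2 did not call it. Globin stayed in the totals of these levels, and the RBC level rests on 12 UMIs. With TMM, 0 members were lower without the virgin library and 2 without the mt/hGRF library, and 1 was higher without the first lactating library, WT-8wk-0324-female, WT-8wk-0324-male or WT-8wk-0511-male.

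A few ribosomal proteins and their partners in translation have symbols outside the rule. Rpsa, a small subunit protein gene, was higher in MacPh (1.37 ± 0.36) and not called in Sox2+, and Fau was not tested. For translation genes with TOP mRNAs 17 symbols were listed, of which Gnb2l1 and Rack1 name the same gene. Of these symbols 15 were tested, and 12 were higher in MacPh, where 24.2% of all genes were (median 1.09). Among them were the elongation factor gene Eef1a1 (1.33 ± 0.24), the poly(A)-binding protein gene Pabpc1 (1.64 ± 0.26) and Rack1 (1.09 ± 0.22), whose protein sits on the small subunit. In Sox2+, where 15.6% of all genes were higher, 0 of the 15 were called (median 0.27).

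Of 15 ribosome assembly genes 6 were tested in MacPh, where nucleolin (Ncl, 0.85 ± 0.23) and Pes1 (1.22 ± 0.50) were higher and the small nucleolar ribonucleoprotein genes Nop56 (-1.49 ± 0.31) and Nop58 (-0.90 ± 0.29) lower, shares near those of all genes (24.2% higher, 27.9% lower). Of 83 mitochondrial ribosomal protein genes 46 were tested, with 11 higher in MacPh (median 0.39), a share near the 24.2% of all genes, and 3 higher and 1 lower in Sox2+ (median 0.38), where 15.6% of all genes were higher. Outside the members, the genes whose level followed the summed level most closely over 60 library and class sums were Actb (Spearman rho 0.862), Gabarap (0.857), Cst3 (0.850), Cd81 (0.848) and Itm2b (0.844), of 1598 genes with a median of 0.063. Members with as high a level had rho values from 0.365 (Rpl36) to 0.958 (Rps14), each contributing to the sum it was compared with. These points share libraries, depth and free RNA.

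The level depended on the depth of the barcode in hormone cells. In Som of the Drop-seq libraries, the median over libraries was 102 UMIs per 10000 in barcodes with 300 to under 500 non-hormone UMIs. It was 69.8 at 800 to under 1500 and 237 in barcodes over 3000. In Lac it was 83.6, 62.4 and 239 in the same bins, so the level fell before it rose. In MacPh the medians ran from 335 at 300 to under 500 UMIs to 245.5 at 1500 to 3000, and over 3000 the level was 343 in 1 library. Among barcodes restricted to 400 to 1200 UMIs, 36 of 37 tested members were higher in MacPh than in Som (all genes: 32.7%) and 31 of 37 in Sox2+ (all genes: 21.9%). With barcodes over 3000 UMIs left out, a choice made after these levels were seen, 50 of 56 were higher in MacPh (all genes: 27.2%) and 37 of 56 in Sox2+ (all genes: 18.3%). No doublet caller was run on these barcodes.

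**Figure D4:**
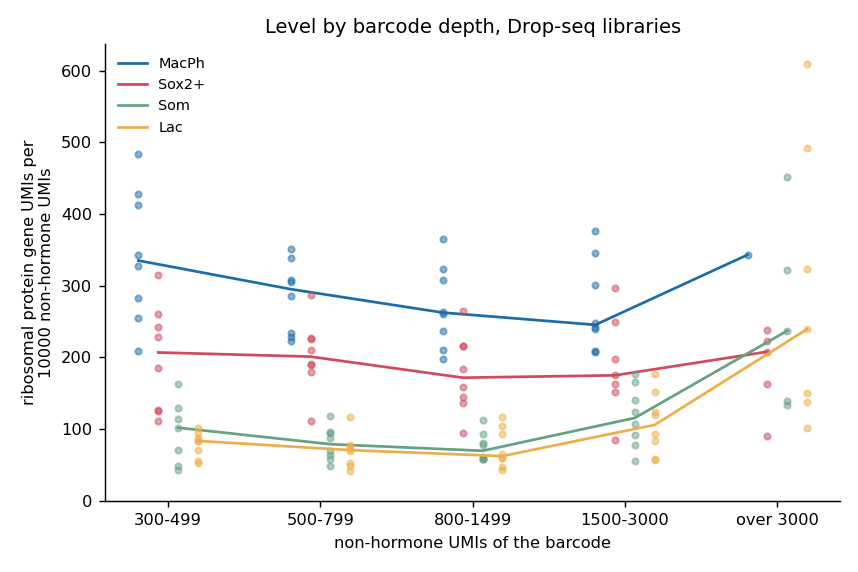
Summed level of the members, in UMIs per 10000, by depth of the barcode in non-hormone UMIs for Som, Lac, Sox2+ and MacPh barcodes of the Drop-seq libraries (points, libraries with at least 3 barcodes in the bin; line, median). In Som and Lac the level is highest in barcodes over 3000 UMIs, at medians of 237 and 239.

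A few such barcodes held much of the hormone cells' ribosomal protein mRNA. In the mt/hGRF library 13 of 108 Som barcodes exceeded 3000 UMIs, at a level of 322 against 115 in the others, and they held 66.5% of the member UMIs with 41.4% of all UMIs. In its Lac gate 4 of 97 did, at 609 against 107, with 61.5% of the member UMIs. The virgin library was alike, with 5 Som barcodes at 452 against 125 and 11 Lac barcodes at 323 against 108. The gate for markers of another class is a fixed count of 2 UMIs, not scaled to depth, so a deep barcode reaches it more easily. Such markers reached it in 3 of the 13 and 0 of the 4 deep mt/hGRF barcodes, against 1 of 95 and 3 of 93 of the shallower ones. In Lac they did so in 9 of 14 deep barcodes of the second lactating library, against 27 of 454, and in 6 of 16 of the female 10X library, against 16 of 334. Their part in the level was not tested. In the female 10X library 5 deep Som barcodes were at 1447 against 202, and in the male 9 were at 884 against 278. The WT-8wk-0324 libraries had 0 to 3 such barcodes in either gate. In Som of WT-8wk-0324-male the 2 deep barcodes were not the higher, at 81.8 against 94.5, and held 18.0% of the member UMIs with 20.2% of all UMIs.

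**Figure D5:**
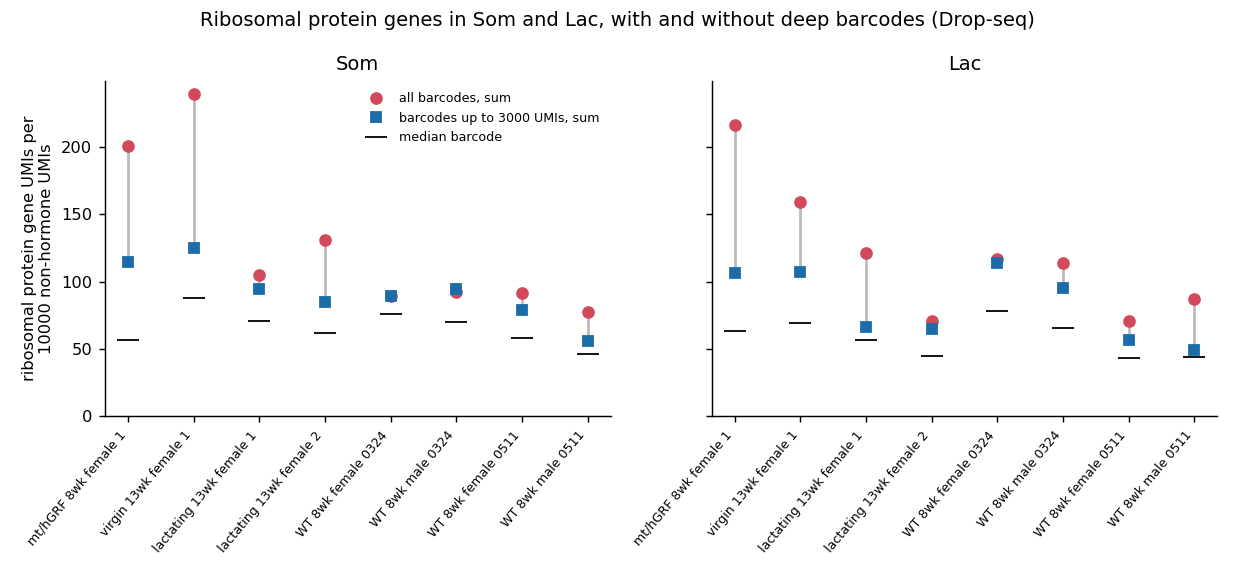
Summed level of the members in Som and Lac of each Drop-seq library, in UMIs per 10000, over all barcodes, over barcodes of up to 3000 non-hormone UMIs, and as the median over barcodes. The mt/hGRF sums of 201 and 217 stand among the highest over all barcodes, and its barcode medians of 56.8 and 63.6 lie within the range of the other libraries.

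The condition comparisons asked whether sex, lactation or the transgene moved the members within Som or within Lac. They were fitted over the 8 Drop-seq libraries, with groups of 1 library assumed to vary like the others. Counts of members at an unadjusted p under 0.05 have no share of all genes beside them and are not a result about the members. By sex, the summed Som level was 89.6 and 91.7 in the WT females and 92.0 and 77.7 in the WT males. In Lac it was 117 and 71.0 in females and 114 and 87.1 in males, so the sexes overlapped in Lac and 1 male library lay on either side of the females in Som. Of 40 members tested in Som 0 were called in either direction (all genes: 0.102% higher, 0.102% lower), 1 had an unadjusted p under 0.05 and DESeq2 called 0. Of 68 tested in Lac 0 were called (all genes: 0.117% each way), with 1 at an unadjusted p under 0.05 and 0 in DESeq2. The smallest edgeR Benjamini-Hochberg adjusted p of a member was 0.984 in Som and 0.912 in Lac.

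In lactation, the Som level was 105 and 131 against 240 in the virgin library, and the Lac level was 121 and 70.5 against 159. Both lactating libraries lay below the single virgin library in each class. Without barcodes over 3000 UMIs the Som level was 94.4 and 84.5 against 125, and the barcode medians were 70.8 and 61.6 against 87.7. Malat1 differed the other way, at 1341 and 1323 UMIs per 10000 in Som of the lactating libraries against 632, and at 2079 and 2229 in Lac against 1195, and its part in the level was not tested. Of the 40 members in Som 0 were called (all genes: 0% higher, 0.0339% lower), with 14 at an unadjusted p under 0.05 in edgeR and 0 called in DESeq2, and the median log2 fold change was -0.91, against 0.09 over all genes. In Lac 0 of 68 were called (all genes: 0.0729% each way), with 5 at an unadjusted p under 0.05, 0 in DESeq2 and a median of -0.43. The smallest edgeR Benjamini-Hochberg adjusted p of a member was 0.889 in Som and 0.460 in Lac. Both groups were 13 weeks old, and the virgin condition rests on 1 mouse.

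The transgene comparison had the only member calls between conditions, and none was made without the deepest barcodes. The Som level was 201 in the mt/hGRF library and 89.6 and 91.7 in the WT females, which the sex comparison also uses, and the Lac level was 217 against 117 and 71.0. The virgin library, which lacks the transgene, was at 240 in Som, above the mt/hGRF library, and at 159 in Lac, below it. The lactating and male libraries lay below the mt/hGRF library in both classes. The mitochondrial share was also higher in the mt/hGRF library, at 4.57% against 2.40% and 1.55% in Som and at 2.36% against 2.26% and 1.18% in Lac, and its part in the level was not tested. Of 40 members tested in Som 6 were higher and 0 lower (all genes: 0.914% higher, 0.339% lower), with a median log2 fold change of 1.46 against -0.04 over all genes. In Lac 17 of 68 were higher and 0 lower (all genes: 1.12% higher, 0.102% lower), with a median of 1.18 against -0.07. With barcodes over 3000 UMIs left out, 0 of 29 members in Som and 0 of 63 in Lac were called, and the medians were 0.76 and 0.52. The barcode medians in the mt/hGRF library were 56.8 in Som and 63.6 in Lac, against 75.6 and 58.4, and 78.3 and 43.4, in WT-8wk-0324-female and WT-8wk-0511-female.

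Rps21 was called in both classes, and so was Rps26. In Som it was at 5.61 in the mt/hGRF library (97 UMIs) and at 1.67 and 1.02 in the WT females (4 and 6 UMIs), a log2 fold change of 2.31 ± 0.63 (edgeR Benjamini-Hochberg adjusted p = 0.0403). In Lac it was at 9.25 against 1.61 and 1.53 (2.70 ± 0.51, adjusted p = 0.000200 by the same test). The mt/hGRF library lay above both of these WT libraries in each class. In Som the virgin library, which lacks the transgene, was higher still, with Rps26 at 6.67 (37 UMIs). The lactating libraries were at 2.57 and 2.81 and the WT males at 1.38 and 1.30. Rplp2, also called in Som, was at 5.95 in the virgin library, near the 6.13 of the mt/hGRF library. The other named Som members were Rps3a1 (5.32 against 1.25 and 1.36), Rps20 (5.66 against 1.25 and 1.53), Rplp2 (6.13 against 0.417 and 2.21) and Rps21 (11.7 against 2.5004 and 4.77), and Rpl4 was the sixth call, at a log2 fold change of 1.69 ± 0.48.

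In Lac, Rpl35a was at 2.36 against 0.602 and 0.353, from 23, 3 and 6 UMIs (log2 2.61 ± 0.68, edgeR Benjamini-Hochberg adjusted p = 0.0215), and Rps27l at 2.06 against 0.602 and 0.294 (2.56 ± 0.71). Among the stalk genes Rplp0 was at 5.96 against 1.61 and 0.941 (2.498 ± 0.54) and Rplp1 at 8.84 against 2.81 and 1.29 (2.41 ± 0.51). With either 8-week WT female library left out, 1 library remained in each group and the Som calls were not kept. The Lac calls were mostly kept without WT-8wk-0324-female and mostly lost without WT-8wk-0511-female. Without the first or the second lactating library 5 of the 17 remained in Lac, which describes stability and is not set against all genes. A test of the difference between the effects in Lac and Som called 0 of 1786 genes for each of the 3 conditions, and of the 35 members in it 2, 1 and 1 had an unadjusted p under 0.05 for sex, lactation and the transgene. With a single mt/hGRF library, the transgene and the library cannot be told apart.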

How the data were processed

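The authors deposited raw counts of UMIs per gene symbol and barcode for every library, with no normalization. Per the labels and the study's methods, STAR (2.5.2a in the submitters' processing notes) placed the Drop-seq reads on mm10, unique reads on the annotated strand of exons were kept, and UMIs a single base apart were merged. The 10X Genomics tables came from Cell Ranger, whose version and reference are not given in the sources used here. The members and the gene lists were chosen with earlier results of these data known.

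Barcodes were kept with at least 300 UMIs and 100 to 4000 genes (Drop-seq) or 200 to 3000 genes (10X), a mitochondrial share under 0.1 and a ribosomal pseudogene share under 0.01. Classes were gated by marker genes, the limits being set once the files had been seen, and the highest class won. No doublets were removed. UMIs, without 7 hormone genes, were summed per library and class where at least 20 barcodes allowed it. Sums were tested with edgeR 4.0.16 in R 4.3.3 (quasi-likelihood, two-sided, TMM, filterByExpr, Benjamini-Hochberg adjustment over all genes tested, threshold 0.05). Classes were compared within Drop-seq libraries against Som with the library as a block, and conditions over the 8 Drop-seq libraries. P-values of the class tests measure how class differences vary between libraries, some of which pool mice. Those of the condition tests measure the spread between libraries within groups, to which groups of 1 library add nothing. DESeq2 1.42.0, other scalings, filters, gates and depths, and leaving out each library were the alternatives. The fits were tested on simulated data first. Levels were computed with Python 3.11.15. Named members were the 5 largest called changes per comparison with a like direction in every library (or no overlap between conditions), the 5 highest and 5 lowest members, and the paralog pairs. Some members that meet this rule are not reported here.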

Additional observations from a re-analysis of the deposited data

Results flagged for a closer look

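Barcodes set aside for a ribosomal pseudogene share of 0.01 or more entered none of the comparisons as reported, only the alternative without that limit, and they held members far above the kept barcodes, which is why they are given here. In 10X the summed level of the members was 4744 UMIs per 10000 in 105 barcodes of the female library and 5110 in 157 barcodes of the male library, against 450.0 and 484.5 in the kept barcodes. These barcodes had 7.34 and 5.29 Malat1 UMIs per 10000, against 2180 and 1804, a mitochondrial share of 0.0775% and 0.0507%, against 2.64% and 3.37%, and a median of 2569 and 19330 UMIs. Markers of proliferating cells gated 47 of the 105 and 89 of the 157. Among the members, Rpl36a was at 178.0 and Rps4x at 175.9 in the male set-aside barcodes, against 4.66 and 7.41 in the kept ones.

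In Drop-seq the level in the barcodes set aside was 821 in the mt/hGRF library (29 barcodes), 818 in the virgin library (38) and 930 in the first lactating library (37). In the second lactating library it was 976, from only 3 barcodes. In the WT 8-week libraries it was 412 (WT-8wk-0324-female, 171 barcodes), 390.0 (WT-8wk-0324-male, 152), 399 (WT-8wk-0511-female, 256) and 410.0 (WT-8wk-0511-male, 159). Every one of these levels lay above the kept level of its library, which was at most 162. In these WT 8-week libraries, in the same order, the gates took only 42.7%, 32.2%, 32.4% and 45.9% of the barcodes set aside. Macrophage markers gated 45 of the 73 gated ones in WT-8wk-0324-female, 22 of 49 in WT-8wk-0324-male, 10 of 83 in WT-8wk-0511-female and 17 of 73 in WT-8wk-0511-male. Markers of proliferating cells gated 1, 16, 44 and 36, more than macrophage markers in both WT-8wk-0511 libraries. The macrophage counts were 7 of 25 (mt/hGRF), 17 of 28 (virgin), 21 of 31 (first lactating) and 1 of 3 (second lactating). Those of proliferating cells in these libraries were 0, 0, 1 and 0. WT-8wk-0324-female kept too few MacPh barcodes to enter the MacPh comparison. The pseudogene share and the level of the members are not independent measures, and these levels are given without a test.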

How the results depend on the processing

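Counts of members called were recomputed under each alternative. The number of members tested moved too, from 59 in the main class fit to 37 with 400 to 1200 UMIs and 87 with no filter on low counts. So did the share of all genes called, for example higher in Mki67+ from 4.23% to 19.8% with no pseudogene limit. The counts in this section describe stability and, without such shares beside them, are not a result about the members. Sex and lactation had 0 calls in every alternative run, and MacPh had 36 to 51 members higher. With TMM left out, 2 members were lower in MacPh, 16 in Mel, 56 in RBC and 0 in stroma, 0 were higher in RBC, and the transgene gave 0 in Som and 10 in Lac. With members left out of totals and TMM the transgene gave 10 in Som. DESeq2 called 1 lower in Gona, 5 lower in Mel, 0 lower in Mki67+, 5 higher and 0 lower in RBC, 0 lower in stroma, and 0 (Som) and 5 (Lac) for the transgene. With no filter on low counts 2 were lower in MacPh and in Sox2+, 10 higher in Sox2+, 1 higher in RBC, 0 lower in Mki67+, and the transgene gave 0 and 1. With hormone genes kept, 1 was lower in Mel, 2 lower in Sox2+, and the transgene gave 11 in Som. With no limit on the pseudogene share, 0 were lower in Gona, Sox2+ and stroma, 3 lower and 26 higher in Mki67+, 8 higher in stroma, 13 higher in Sox2+, 1 higher in RBC, and the transgene gave 7 in Lac. With 1 more marker UMI, 1 was lower in Gona, 0 in MacPh, RBC and Sox2+, 6 in Mel and 2 in Mki67+, 5 higher in Sox2+ and 1 in RBC, and the transgene gave 0 and 0. With 400 to 1200 UMIs, 0 were lower in Gona, MacPh and Sox2+ and the transgene gave 0 and 0. With barcodes over 3000 UMIs left out, 0 were lower in Gona, Mki67+, RBC and stroma, 1 was higher in Mel, 4 in RBC and 37 in Sox2+, and the transgene gave 0 and 0; this alternative was chosen after seeing the data. The cause was not tested.

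Leaving out single libraries gave 46 to 49 higher and 0 to 2 lower in MacPh, 10 to 22 higher and 0 to 2 lower in Sox2+, 1 to 7 lower in Gona, 0 to 6 in Mel, 0 to 5 in Mki67+, 1 to 2 in stroma, 1 to 3 higher and 0 to 2 lower in RBC, and 0 to 10 (Som) and 1 to 20 (Lac) for the transgene. Over all alternatives named members kept direction and call in 83 of 83 values in MacPh and 80 of 84 in Sox2+, in 13 of 17 in Gona, 12 of 16 in RBC and 8 of 12 in stroma, but for the transgene in only 36 of 76 (Som) and 47 of 78 (Lac). Members were named for a call and a like direction in the main fit of these same data, which favours such counts. The Rps3 log2 fold change turned to 0.15 in Gona with 400 to 1200 UMIs and to 0.53 in stroma with no pseudogene limit.

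The Drop-seq summed level moved in Mki67+ to 209.7 (no pseudogene limit), in RBC to 75.7 (400 to 1200 UMIs) and in stroma to 201.5 (no pseudogene limit), 90.5 (1 more marker) and 88.9 (without barcodes over 3000). In 10X the level over all barcodes became 2597, 318, 351 and 360.4 with no pseudogene limit, 400 to 1200 UMIs, no barcodes over 3000 and hormone genes kept. In 10X Som it became 662 (1 more marker), 208 (400 to 1200), 240.3 (without barcodes over 3000) and 311 (hormone genes kept), in 10X Lac 183 (400 to 1200), in 10X Sox2+ 1555 (no pseudogene limit) and 894 (hormone genes kept), and in 10X MacPh 1992 (400 to 1200), 1629 (without barcodes over 3000) and 1436 (hormone genes kept).

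The WT females and males share the labels WT-8wk-0324 and WT-8wk-0511. With the label as a replicate block, 0 members were called by sex (13 tested in Som, 39 in Lac), also with the 10X pair added (35 and 64 tested). Deviations of samples with a like label had a correlation of 0.172 in Som and 0.320 in Lac. Over only 2 pairs this does not decide whether the labels are a pairing, and the main sex fit did not use them as a block. The summed level over all kept barcodes went with the label, at 131 and 129 in the WT-8wk-0324 libraries and 83.0 and 76.9 in the WT-8wk-0511 libraries. In the class tests 29 members had too few counts to be tested, which does not show equal levels.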
